A study of Mus musculus musculus x M. m. domesticus and Mus musculus musculus x Mus musculus castaneus and Mus musculus domesticus with 42 samples.

Results

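The mitochondrial ribosomal proteins are the nucleus-encoded proteins of the ribosome inside mitochondria. On this array they were taken as every probe set whose only annotated gene symbol was Mrpl or Mrps followed by a number and an optional letter. This gave 156 probe sets for 76 genes, out of 45037 probe sets and 18193 gene symbols in all. The large subunit symbols (Mrpl) accounted for 104 probe sets and 47 genes, and the small subunit symbols (Mrps) for 52 probe sets and 29 genes. A further 4 probe sets that list such a symbol beside another were left out. Of the 76 genes, 34 had 1 probe set and 42 had several.

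RNA from brain, liver and testis of 14 male mice was hybridised to 42 Affymetrix arrays, 1 array per male and tissue. The males belonged to 7 genotypes with 2 males each, all from wild-derived inbred lines. The 4 reciprocal F1 hybrids, written with the mother first, were domesticus x musculus (50 days old), musculus x domesticus (53 days), castaneus x musculus (54 days) and musculus x castaneus (53 days). The 3 parental lines were Mus musculus domesticus (45 days), M. m. castaneus (47 days) and M. m. musculus (47 days). Because mitochondria come from the mother, the 2 F1 of a cross carry the same nuclear autosomes and different mitochondria. Reciprocal males also differ in the X, the Y, the imprinted alleles, the mother herself and age, and these cannot be told apart here.

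The mitochondrial ribosome translates only the few proteins encoded by mitochondrial DNA, all of them parts of the respiratory chain and ATP synthase. Its ribosomal RNAs come from the mitochondrial genome, and all of its proteins come from nuclear genes and are imported. Many of these proteins have a counterpart in the bacterial ribosome, while others are found only in mitochondria. In the set, 46 genes (99 probe sets) had such a counterpart and 30 genes (57 probe sets) had none.

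The deposited signals are linear intensities made with MAS5. Signals of the 156 probe sets ran from 1 to 11959 with a median of 875, and 0 of 6552 values stood at 0. A probe set was tested in a tissue when its mean lay at or above the 40th percentile there, a mean signal of 100.1 in brain, 82.4 in liver and 84.3 in testis. This kept 27022 probe sets per tissue, among them 139 members in brain, 137 in liver and 133 in testis, with every one of the 76 genes represented in each tissue. A call is a Benjamini-Hochberg adjusted p under 0.05 over all tested probe sets of the contrast, from limma fitted to the 14 arrays of a tissue. Differences are on the log2(signal + 31) scale, which understates differences of dim probe sets. Probe sets bind with different strength, so levels were compared only within a probe set. Replicate arrays correlated at 0.958 to 0.981, and array medians ranged from 95 to 183, with the castaneus x musculus F1 replicate 1 lowest in both liver (97) and testis (95). Tissue labels fitted their markers: summed hepatocyte markers were 151316 to 223498 in liver, 12215 to 18126 in brain and 260 to 3621 in testis. Summed neuron markers were 48846 to 64550 in brain and at most 3239 elsewhere, and elongating spermatid markers were 122260 to 247637 in testis and at most 3286 elsewhere. In these bulk samples, fewer cells of a type and less RNA per cell cannot be told apart.

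**Figure D1:**
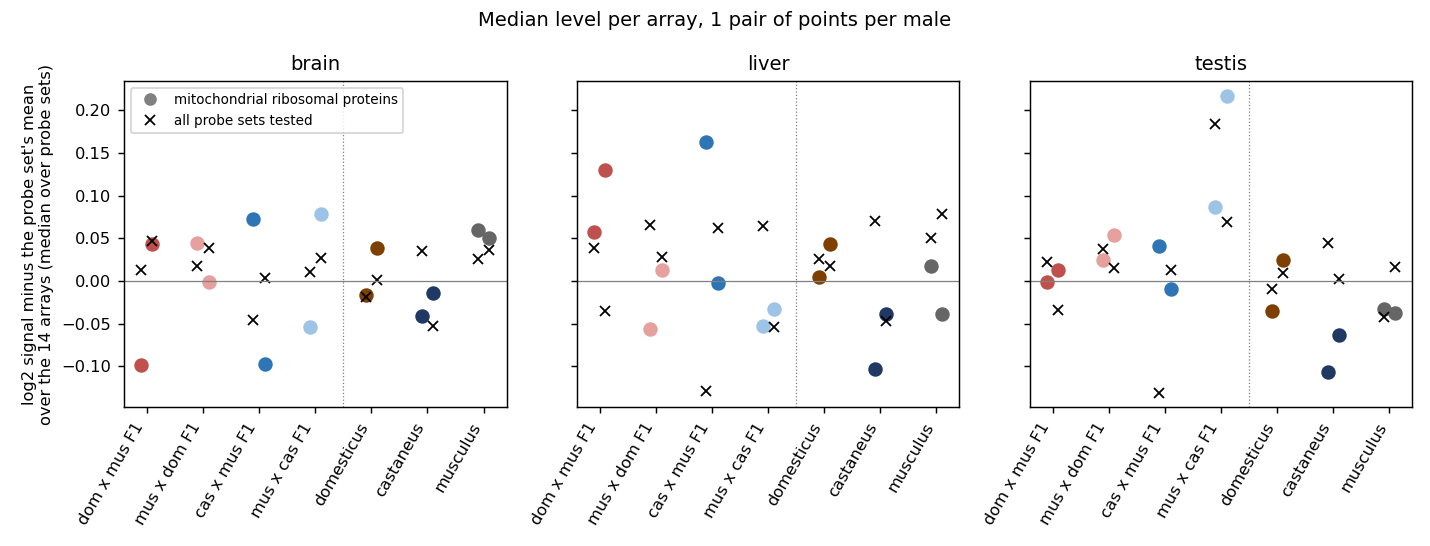
Median log2 level per array relative to the mean of its tissue (vertical axis), for the mitochondrial ribosomal protein probe sets and for all tested probe sets, by genotype in brain, liver and testis, 1 pair of points per male. The castaneus x musculus F1 replicate 1 in liver has the widest gap between members (0.163) and all probe sets (-0.129).

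Whether the mother's subspecies mattered was tested as domesticus-mother minus musculus-mother F1 and castaneus-mother minus musculus-mother F1, 2 contrasts that share no arrays. In brain and liver no mitochondrial ribosomal protein passed the test in either cross or in both crosses together. In testis none passed in the domesticus cross, where 0.204% of all probe sets did. In the castaneus cross 3 rose and 15 fell (13.5% of members, against 28.4% of all probe sets).

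In brain, 53 of 139 members were higher in the domesticus-mother F1, with a median difference of -0.07 against 0.00 over all probe sets, and 2 had an unadjusted p under 0.05 (1.44%, against 4.12% of all). In the castaneus cross 58 were higher in the castaneus-mother F1, with a median of -0.03 against -0.04 over all, and 6 had an unadjusted p under 0.05 (4.32%, against 3.95%). Over both crosses 55 were positive and 7 had an unadjusted p under 0.05 (5.04%, against 5.92%). The limma fit called 0.0222% of all probe sets in the domesticus cross, 0.0111% in the castaneus cross and 0.0185% over both, so these contrasts gave few calls of any kind. The member with the smallest p in the domesticus cross was Mrps16, the counterpart of bacterial S16. Its signals were 1017 and 1233 in the domesticus-mother F1 and 1561 and 1843 in the musculus-mother F1. The arrays did not overlap, but the difference of -0.59 (SE 0.19) had an adjusted p of 1.0. Mrpl11 (1417918_at), the counterpart of L11, followed with 1521 and 1459 in the domesticus-mother F1 and 2102 and 1800 in the musculus-mother F1 (-0.38, SE 0.129, adjusted p 1.0). In the castaneus cross the smallest p values were those of Mrpl51, a mitochondria-specific large subunit protein, and Mrpl35, the counterpart of L35. Mrpl51 read 3968 and 3297 in the castaneus-mother F1 against 2335 and 2614 in the musculus-mother F1 (0.54, SE 0.129, adjusted p 0.657). Mrpl35 (1440989_at) read 1042 and 908 in the castaneus-mother F1 against 633 and 621 in the musculus-mother F1 (0.61, SE 0.15, adjusted p 0.664). Neither probe set overlapped between the reciprocal F1. With 2 arrays against 2 in brain, 28.7% of all probe sets did not overlap in the domesticus cross and 29.0% in the castaneus cross, and these members were named for their small p. Their other probe sets differed by -0.11 and 0.13 (Mrpl11), by -0.25 and -0.15 (Mrpl51) and by -0.43 and 0.52 (Mrpl35), none called.

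In liver more members lay above 0 than below it in each cross, with no call. In the domesticus cross 96 of 137 were higher with a domesticus mother, at a median of 0.08 against -0.04 over all probe sets, and 11 had an unadjusted p under 0.05 (8.03%, against 9.62% of all). In the castaneus cross 99 were higher with a castaneus mother, at a median of 0.13 against -0.03 over all, and 7 had an unadjusted p under 0.05 (5.11%, against 3.51%). Over both crosses the median was 0.11, 104 were positive, and 19 (13.9%) had an unadjusted p under 0.05 against 8.94% of all probe sets. The share of all probe sets called was 0.0888% in the domesticus cross, 0.037% in the castaneus cross and 0.0999% over both. All 4 arrays with a non-musculus mother lay above all 4 with a musculus mother for 9 members and below them for 1 (7.3%), against 3.89% of all probe sets; in brain this held for 1 and 2 members (2.16%, against 2.62%). These medians were small and moved with single arrays. The castaneus x musculus F1 replicate 1, the liver array with the lowest array median, had a member median of 0.163 and an all-probe median of -0.129 about the tissue mean. Without it the castaneus-cross median fell to 0.06, with 81 members positive and 0.06 over all probe sets. The other castaneus-mother liver had a member median of 0.00, against -0.05 and -0.03 in the 2 musculus-mother livers. One musculus x castaneus F1 liver, replicate 2, carried summed exocrine pancreas markers of 65470, against 1540 to 10884 in the other livers. Without it the castaneus-cross median was 0.15 with 96 members positive.

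The liver members named by the smallest p were higher with a non-musculus mother, without a call. Mrps6 (1424440_at), the counterpart of S6, read 646 and 806 in the domesticus-mother F1 against 396 and 472 in the musculus-mother F1, and 690 and 565 in the castaneus-mother F1 against 358 and 448 in its reciprocal. The non-musculus-mother arrays were the higher ones in each cross, with differences of 0.70 (SE 0.219, adjusted p 0.279) and 0.60. Mrpl15 (1425189_a_at) read 5572 and 6035 in the domesticus-mother F1 against 3829 and 4356 in the musculus-mother F1 (0.50, SE 0.178, adjusted p 0.349). In the castaneus cross Mrpl35 (1440989_at) read 244 and 304 in the castaneus-mother F1 against 131 and 100 in the musculus-mother F1, a difference of 1.06 (SE 0.254) with an adjusted p of 0.476. Mrpl18, the counterpart of L18, read 2474 and 2776 in the castaneus-mother F1 against 2078 and 1638 in the musculus-mother F1 (0.50, SE 0.166, adjusted p 1.0). These probe sets did not overlap between reciprocal F1, nor did 43.3% of all probe sets in the domesticus cross and 25.3% in the castaneus cross. The second Mrps6 probe set, 1447585_s_at, differed by 0.37 in the domesticus and 0.10 in the castaneus cross. Other Mrpl15 probe sets differed by -0.72 to 0.38 in the domesticus cross, and those of Mrpl35 by -0.02 and 0.13 in the castaneus cross.

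The lack of a call leaves room for moderate differences. The median half-width of the 95% interval was 0.42 in brain, 0.48 in liver and 0.42 in testis for a single cross, and 0.29, 0.34 and 0.30 for both crosses together. Over both crosses the whole interval lay within a 1.0 log2 difference either way for 138 of 139 members in brain, 135 of 137 in liver and 131 of 133 in testis. It lay within 0.5 for 103, 71 and 78. In the domesticus cross alone these counts were 131, 116 and 127 within 1.0, and 53, 31 and 56 within 0.5. In the castaneus cross alone they were 130, 121 and 105 within 1.0, and 59, 19 and 28 within 0.5. For Mrps16 in brain the interval of the domesticus cross ran from -1.0 to -0.17, and for Mrpl35 (1440989_at) in liver that of the castaneus cross ran from 0.51 to 1.61.

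**Figure D2:**
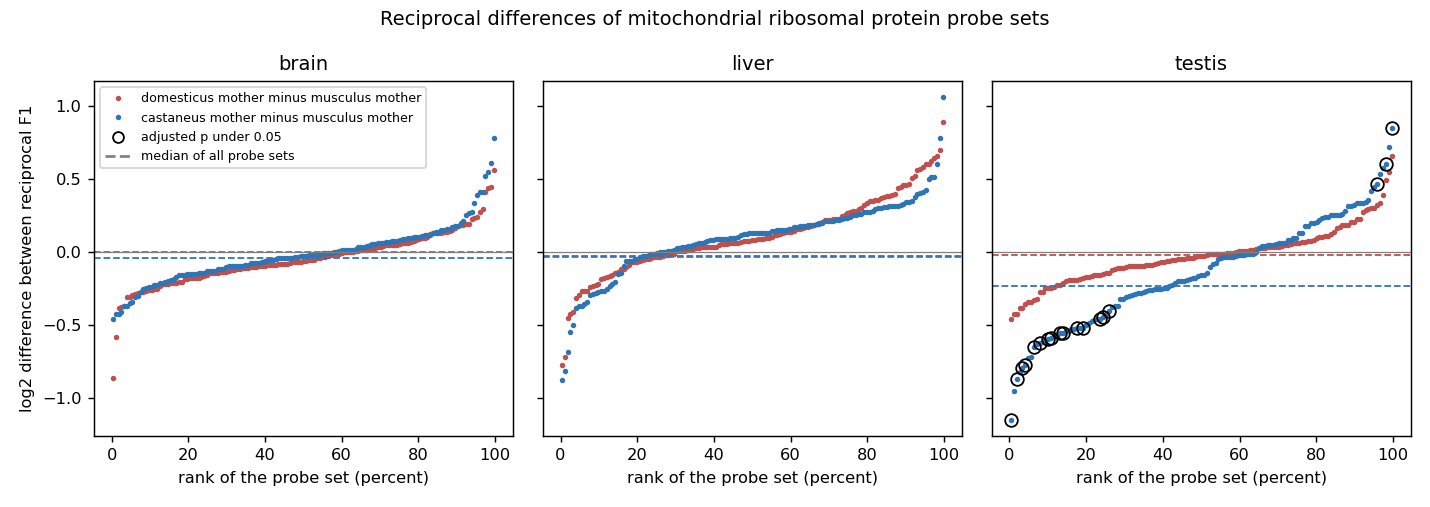
Log2 difference between reciprocal F1 (non-musculus mother minus musculus mother, vertical axis) of each tested mitochondrial ribosomal protein probe set, sorted within each cross (horizontal axis, percent of rank), with called probe sets circled and the median of all tested probe sets as a dashed line. Circles appear only in the testis of the castaneus cross, 3 above 0 and 15 below (13.5% of members, against 28.4% of all probe sets).

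In testis of the domesticus cross 54 of 133 members were higher with a domesticus mother, at a median of -0.03 for members and for all probe sets. None was called, 3 had an unadjusted p under 0.05 (2.26%, against 4.88% of all), and 0.204% of all probe sets were called. The smallest p belonged to Mrpl11. Its probe set 1437839_x_at read 1063 and 849 in the domesticus-mother F1 against 647 and 541 in the musculus-mother F1 (0.66, SE 0.157, adjusted p 0.212). Its probe set 1437131_x_at read 3214 and 2834 in the domesticus-mother F1 against 1880 and 2253 in the musculus-mother F1 (0.55, adjusted p 0.385). Its 1417918_at read 2917 and 3436 in the domesticus-mother F1 against 3444 and 2966 in the musculus-mother F1 and did not separate the groups.

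In testis of the castaneus cross the castaneus-mother F1 differed from the musculus-mother F1 at 28.4% of all probe sets. Among members, 18 of 133 (13.5%) were called, from 16 genes. Of these, 3 probe sets rose and 15 fell in the castaneus-mother F1, with a median over members of -0.16 against -0.24 over all probe sets. Of all probe sets, 10.6% rose and 17.9% fell. The large subunit symbols gave 3 higher and 7 lower of 87, and the small subunit symbols 0 higher and 8 lower of 46.

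Among small subunit proteins the widest gap was that of Mrps23, a protein specific to mitochondria. Its probe set 1459806_x_at read 225 and 355 in the castaneus-mother F1 and 787 and 565 in the musculus-mother F1. The musculus-mother F1 arrays were the highest of all 14 testes, where the other genotypes lay between 180 and 355. The difference was -1.15 (SE 0.251, adjusted p 0.00494), a 2.22-fold lower signal. Its probe set 1421875_a_at fell by 0.44, with 692 and 743 in the castaneus-mother F1 against 926 and 1052 in the musculus-mother F1. The third, 1421874_a_at, at 931 and 854 in the castaneus-mother F1 against 990 and 1011 in the musculus-mother F1, was not called (adjusted p 0.515). Mrps6 fell at both called probe sets. Its 1424440_at read 569 and 481 in the castaneus-mother F1 against 655 and 1039 in the musculus-mother F1 (-0.63, SE 0.194, adjusted p 0.0285), and 1447585_s_at read 1368 and 1209 in the castaneus-mother F1 against 1597 and 2269 in the musculus-mother F1 (-0.56, adjusted p 0.0249). Within the musculus-mother F1 the 2 Mrps6 arrays stood well apart, with replicate 2 the higher. Mrps25 (1418716_at) was dim, with 57 and 75 in the castaneus-mother F1 and 131 and 162 in the musculus-mother F1 (-0.87, SE 0.274, adjusted p 0.0306). The rest of the small subunit calls were Mrps7, Mrps2 and Mrps17, which fell by 0.53, 0.52 and 0.41.

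Among large subunit proteins Mrpl47 rose most. This mitochondrial relative of bacterial L29 read 6520 and 5286 in the castaneus-mother F1 and 2905 and 3619 in the musculus-mother F1. The musculus-mother F1 stood below every other testis, musculus at 7612 and 5583 and castaneus at 4004 and 4699 included. The difference was 0.85 (SE 0.188, adjusted p 0.0053), a 1.8-fold higher signal. Mrpl51 also rose, with 10051 and 8562 in the castaneus-mother F1 against 6992 and 6467 in the musculus-mother F1 (0.46, SE 0.139, adjusted p 0.025). Mrpl41, a mitochondria-specific protein, read 1972 and 1521 in the castaneus-mother F1 against 1020 and 1255 in the musculus-mother F1 (0.60, adjusted p 0.0491), a call that ended in 11 of 19 alternative settings.

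The large subunit members that fell included Mrpl1, the counterpart of the L1 stalk protein, at 107 and 156 in the castaneus-mother F1 against 251 and 246 in the musculus-mother F1 (-0.80, SE 0.231, adjusted p 0.021). Mrpl58, also known as ICT1, is a peptidyl-tRNA hydrolase built into the ribosome. It read 647 and 487 in the castaneus-mother F1 against 808 and 1194 in the musculus-mother F1 (-0.77, adjusted p 0.0298). Mrpl3 (1422464_at), the counterpart of L3 near the peptidyl transferase centre, read 1472 and 1543 in the castaneus-mother F1 against 2053 and 2551 in the musculus-mother F1 (-0.59, SE 0.165, adjusted p 0.0176). Mrpl14, Mrpl49, Mrpl27 and Mrpl34 fell by 0.65, 0.60, 0.56 and 0.46. Of 12 called genes with several tested probe sets, 10 were called by 1 probe set only. Uncalled probe sets of Mrpl1 (1450948_a_at, 0.53), Mrps2 (1420845_at, 0.25), Mrpl51 (1416878_at, -0.48) and Mrpl41 (1428589_at, -0.02) pointed the other way from the called one. Those of Mrpl27 (-0.60), Mrpl34 (-0.63), Mrpl3 (-0.49 and -0.27), Mrpl49 (-0.33), Mrpl58 (-0.22) and Mrps25 (-0.01) had its sign.

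These calls leaned on single arrays and on the scaling. Leaving out the musculus x castaneus F1 replicate 2 left 3 calls, 2 of them higher, and leaving out its replicate 1 left 10. Without the castaneus x musculus F1 replicate 1 there were 5, and without its replicate 2 there were 13. Quantile normalization moved the median of all probe sets by 0.20 and gave 2 higher and 6 lower. Centring each array on its median moved it by 0.29 and gave 18 higher and 1 lower, so the direction of the member calls as a group flips with the scaling. The member median was -0.06 against -0.03 over all probe sets with quantile normalization, and 0.13 against 0.05 with median centring.

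Testis cell markers moved between the same arrays. The summed signal of 11 round spermatid markers was 80100 and 69935 in the castaneus-mother F1 and 42860 and 41065 in the musculus-mother F1, against 68620 to 83024 in the other genotypes, with 10 of 11 genes higher and a median difference of 0.88. Summed elongating spermatid markers were 171311 and 157092 in the castaneus-mother F1 and 138863 and 122260 in the musculus-mother F1, against 165458 to 247637 in the other genotypes, with 4 of 12 genes higher. Summed Sertoli cell markers were 32042 and 31303 in the castaneus-mother F1 and 46102 and 48192 in the musculus-mother F1, against 28804 to 39919 in the other genotypes, with 7 of 11 tested genes lower. Summed Leydig cell markers were 13751 and 10119 in the castaneus-mother F1 and 22196 and 24832 in the musculus-mother F1, against 6973 to 23091 in the other genotypes, with 4 of 7 genes lower. Summed spermatocyte markers were 78940 and 75860 in the castaneus-mother F1 and 77584 and 73858 in the musculus-mother F1. Genes of this list went both ways, with Pgk2 (0.60) and Ccna1 (0.99) called higher and Sycp1 (-0.66) and Dmc1 (-0.66) called lower. No marker gene was listed at 0. Their part in the differences of the ribosomal proteins was not tested.

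Over both crosses in testis, 0 members rose and 6 fell with a non-musculus mother (4.51%), against 17.1% of all probe sets. These were the probe sets of Mrps23 (1459806_x_at at -0.75, adjusted p 0.013, and 1421875_a_at at -0.32, adjusted p 0.0491), Mrps6 (1424440_at at -0.55, adjusted p 0.0172, and 1447585_s_at at -0.39, adjusted p 0.0395), Mrpl49 (-0.50, adjusted p 0.0243) and Mrpl34 (-0.36, adjusted p 0.0349). Other probe sets of Mrps23 (-0.25), Mrpl49 (-0.10) and Mrpl34 (-0.23) were not called. Median centring gave 5 higher and 1 lower instead, and moved the median of all probe sets by 0.18, while quantile normalization moved it by 0.12. Without the domesticus x musculus F1 replicate 2 no call was left. Without its replicate 1 there were 3, without the musculus x domesticus F1 replicates 1 and 2 there were 2 and 3, and without the musculus x castaneus F1 replicate 2 there were 2. All 4 arrays with a non-musculus mother lay below all 4 with a musculus mother for 8 members and above for 0 (6.02%), against 6.58% of all probe sets.

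The reciprocal difference of a member could itself differ between tissues, which was tested for the 129 members that passed the filter in all 3 tissues. In the castaneus cross 4 members were called (7.64% of all probe sets were), and in the domesticus cross 0 (0.471% of all), where 9 had an unadjusted p under 0.05. With the animal as a block, since 3 tissues came from each male, these counts were 14 and 1 (18.0% and 1.95% of all probe sets). Mrps6 (1424440_at) showed castaneus-mother minus musculus-mother differences of 0.15 in brain, 0.60 in liver and -0.63 in testis (adjusted p 0.014). Mrpl35 (1440989_at) showed 0.61, 1.06 and -0.24 (adjusted p 0.0383), whereas its other probe set 1419363_a_at showed -0.43, -0.02 and 0.44 (adjusted p 0.0425). Mrpl1 (1423351_at) showed -0.10, 0.03 and -0.80 (adjusted p 0.0492). Leaving out the castaneus x musculus F1 replicate 1 or the musculus x castaneus F1 replicate 2 left 0 calls. Leaving out their other replicates, or either domesticus x musculus F1 male, left 1, and leaving out a castaneus or musculus male left 2.

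Differences between the parental lines reached 4.12 on the log2 scale, against at most 1.15 between reciprocal F1. Domesticus minus musculus and castaneus minus musculus share the musculus arrays, so they are given side by side as separate comparisons. For domesticus minus musculus, 3 members rose and 4 fell in brain (5.04%, against 5.75% of all probe sets), 7 rose and 3 fell in liver (7.30%, against 6.17%), and 11 rose and 11 fell in testis (16.5%, against 12.8%). For castaneus minus musculus, 6 rose and 10 fell in brain (11.5%, against 6.07%), 3 rose and 5 fell in liver (5.84%, against 6.55%), and 6 rose and 14 fell in testis (15.0%, against 13.5%). In testis the summed Leydig cell markers also differed, at 12040 and 13747 in domesticus and 23091 and 14117 in castaneus against 6973 and 7895 in musculus, and their part was not tested. By gene, Cyp17a1, Klk1b24 and Ptgds were called higher in both lines, while Hsd3b1 was called lower in domesticus (-1.03). Calls came mostly from 1 of a gene's several tested probe sets: in brain, liver and testis this held for 5 of 6, 5 of 6 and 9 of 11 such genes in domesticus, and for 8 of 11, 4 of 6 and 10 of 11 in castaneus. MAS5 summarises short probes that match 1 reference sequence, and probe sets with the suffix _x_at can bind other transcripts as well. No probe sequence was compared with the subspecies' genomes here, so a change in transcript level and a change in probe match cannot be told apart.

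Of the small subunit, Mrps9 (1448921_a_at), the counterpart of bacterial S9, had the widest parental gap. In brain it read 1105 and 1227 in domesticus and 1341 and 1536 in castaneus, against 109 and 112 in musculus. The 8 F1 brains lay between, from 681 to 938. The difference was 3.08 (SE 0.154, adjusted p 5.05e-07) for domesticus and 3.37 (SE 0.154, adjusted p 6.85e-07) for castaneus. In testis it read 1085 and 1254 in domesticus and 2653 and 3052 in castaneus, against 121 and 149 in musculus (2.86, SE 0.157, adjusted p 5.68e-08, and 4.12, SE 0.157, adjusted p 5.06e-09). Liver, at 1216 and 948 in domesticus and 1042 and 1319 in castaneus against 272 and 185 in musculus, had the smaller gap (2.11, SE 0.271, adjusted p 0.000424, and 2.23, SE 0.271, adjusted p 0.000268). Musculus stood below all other genotypes in every tissue, and these calls held in each alternative setting.

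The other Mrps9 probe sets did not all follow. The 1435843_x_at read 414 and 480 in domesticus and 583 and 599 in castaneus brain, against 87 and 93 in musculus (1.98 and 2.36), and rose in both comparisons in liver (1.13 and 1.62) and testis (2.73 and 3.83) as well. Its musculus testes stood far apart, at 146 and 4. In liver its domesticus call was lost without domesticus replicate 1 (adjusted p 0.0989) or musculus replicate 2 (0.14). By contrast 1418034_at read 367 and 421 in domesticus and 518 and 463 in castaneus brain, against 382 and 509 in musculus, with the groups overlapping. In testis that probe set read 402 and 492 in domesticus and 982 and 1091 in castaneus, against 621 and 713 in musculus. It was thus lower in domesticus (-0.55, adjusted p 0.0263) and higher in castaneus (0.61, adjusted p 0.0139). Both of the first probe sets therefore place musculus far below the other lines and 1418034_at does not, while all 3 place castaneus above both other lines in testis. The fourth, 1439210_at, was not called in any tissue, at 0.28, 0.32 and 0.15 for domesticus and 0.40, -0.06 and 0.34 for castaneus in brain, liver and testis.

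Mrps14 and Mrps25 were lower in domesticus than in musculus in all 3 tissues, and Mrps11 was higher. Mrps14 (1420488_at), the counterpart of S14, read 384 and 480 in domesticus brain against 1059 and 1207 in musculus (-1.33, adjusted p 0.000723). In testis it read 95 and 129 in domesticus against 423 and 642 in musculus (-1.96, adjusted p 0.000204), and in liver 313 and 443 in domesticus against 1508 and 830 in musculus (-1.51, adjusted p 0.0234). The lines did not overlap in any tissue, nor did 49.4%, 47.6% and 53.9% of all probe sets in brain, liver and testis. The Mrps14 liver call was lost without domesticus replicate 1 or musculus replicate 1. Its second probe set, 1420489_at, read 2939 and 3155 in domesticus brain against 3151 and 3240 in musculus, and 3550 and 3519 in domesticus testis against 2887 and 2624 in musculus (0.36, adjusted p 0.119). The probe sets of Mrps14 therefore gave different answers, and the third, 1443262_at, was at -0.53 in domesticus brain (adjusted p 0.366).

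Mrps25 (1449194_at), a mitochondria-specific protein, read 1123 and 1278 in domesticus brain against 2446 and 2805 in musculus (-1.11, adjusted p 0.00571). It read 659 and 706 in domesticus liver against 1597 and 1424 in musculus (-1.11, adjusted p 0.00641), and 674 and 831 in domesticus testis against 1183 and 1280 in musculus (-0.69, adjusted p 0.0136). The brain call was lost without domesticus replicate 1 (adjusted p 0.0547) or musculus replicate 2 (0.0661), the liver call without musculus replicate 1 (0.0663), and the testis call without domesticus replicate 1 (0.134) or musculus replicate 2 (0.0936). Its 1418716_at was at -0.18 in domesticus brain and 0.30 in domesticus testis, and 1418717_at at -0.20 in brain, none called. In castaneus 1449194_at was lower still in testis, at 447 and 445 (-1.40, adjusted p 7.46e-05), and was called in brain at 1573 and 1528 (-0.74, adjusted p 0.0465). Mrps11 (1460195_at), the counterpart of S11, read 967 and 917 in domesticus brain against 487 and 393 in musculus (1.05, adjusted p 0.00435), a call lost without musculus replicate 2 (adjusted p 0.0593). It read 1972 and 2034 in domesticus testis against 764 and 763 in musculus (1.36, adjusted p 3.89e-05), with castaneus at 829 and 794. In liver it read 1002 and 1273 in domesticus against 602 and 575 in musculus (0.91, adjusted p 0.0266), a call lost without domesticus replicate 2 or either musculus array. The second Mrps11 probe set, 1455233_at, was at 0.17 in domesticus brain and 0.73 in domesticus testis, neither called.

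Further small subunit calls were fewer. Mrps12, whose bacterial counterpart sits at the decoding centre, read 412 and 380 in castaneus testis against 1206 and 877 in musculus (-1.31, adjusted p 0.00214). Mrps27, a pentatricopeptide repeat protein, fell by 0.89 in domesticus testis (adjusted p 0.00921). Mrps5 (1448488_at) was higher in domesticus liver (0.77, adjusted p 0.0424) and lower in domesticus testis (-0.60), and its 1435563_at was higher in castaneus liver (1.05, adjusted p 0.0393). Both liver calls of Mrps5 ended in 12 or more of 19 alternative settings, and its other liver probe sets ran from -0.33 to 0.99 in domesticus and from -0.66 to 0.34 in castaneus. Mrps36, now known as a subunit of the 2-oxoglutarate dehydrogenase complex, was higher in domesticus liver (0.72, adjusted p 0.0414), a call lost in 10 of 19 settings. Mrps2 (1420845_at) was lower in castaneus liver (-1.03, adjusted p 0.0208), where its 1420846_at was at -0.16. Mrps14 (1443262_at) was lower in castaneus brain (-1.16), where its others were at -0.32 and -0.46 and not called.

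Of the large subunit, Mrpl39 stood out in castaneus. This protein belongs to the mitochondrial ribosome alone. Its 1448909_a_at read 528 and 568 in castaneus brain against 2302 and 2350 in musculus (-2.03, SE 0.127, adjusted p 4.32e-06). It read 1432 and 2080 in castaneus liver against 8748 and 7380 in musculus (-2.20, SE 0.201, adjusted p 2.82e-05), and 1756 and 2007 in castaneus testis against 10322 and 10689 in musculus (-2.46, SE 0.126, adjusted p 3.72e-08). Castaneus was below every other genotype in each tissue, domesticus at 10928 and 10607 in testis included. The F1 of the castaneus cross lay between the lines, at 6986 and 6778 with a castaneus mother and 5716 and 6011 with a musculus mother in testis. The second probe set, 1417966_at, read 1234 and 1169 in castaneus brain against 1195 and 1273 in musculus, 2557 and 2924 in castaneus liver against 3534 and 3047 in musculus, and 3949 and 4307 in castaneus testis against 5474 and 4921 in musculus. It placed castaneus lower without overlap in liver and testis, by far less (-0.26 and -0.33), and was not called in any tissue. Of all probe sets, 48.8% in liver and 54.7% in testis did not overlap between these 2 lines.

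**Figure D3:**
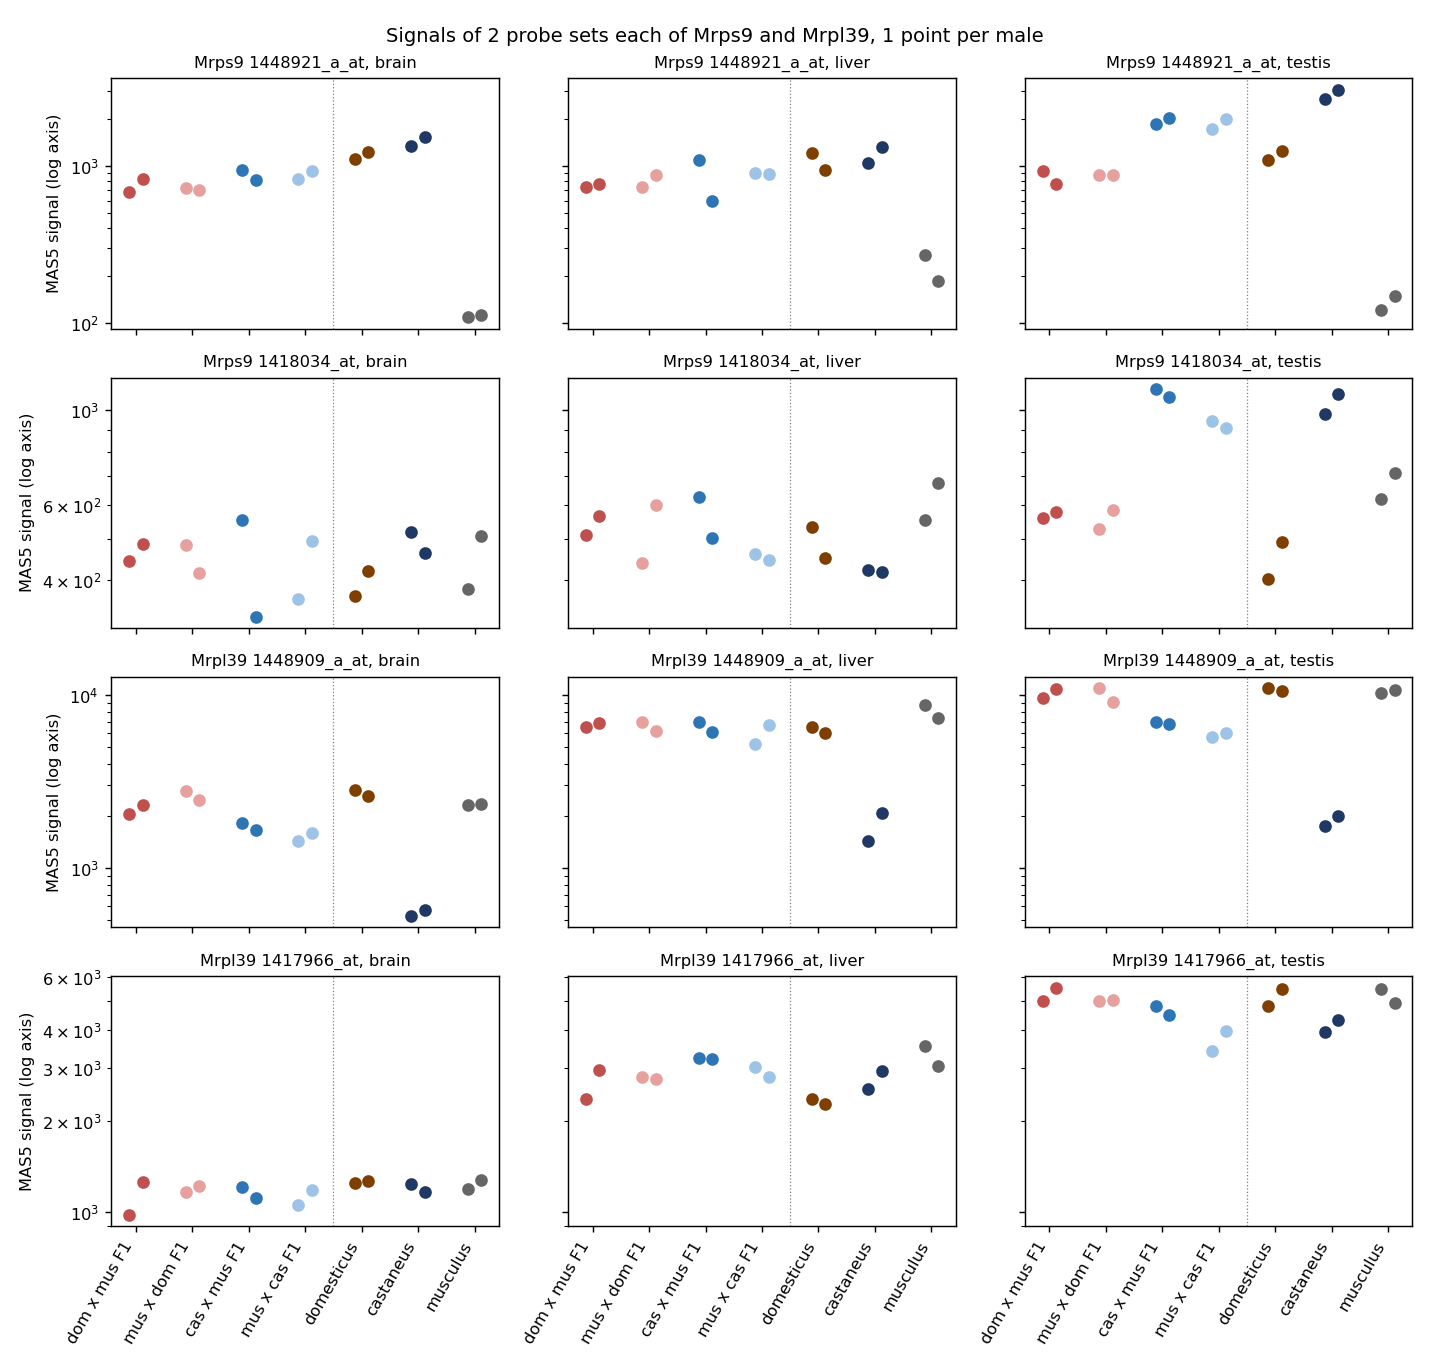
MAS5 signal on a log axis of 2 probe sets each of Mrps9 and Mrpl39, by genotype (F1 at left, parental lines at right of the dotted line) in brain, liver and testis, 1 point per male. Mrps9 1448921_a_at is lowest in musculus and Mrpl39 1448909_a_at lowest in castaneus in every tissue, whereas Mrps9 1418034_at does not place musculus lowest, and Mrpl39 1417966_at was not called, at -0.26 and -0.33 for castaneus minus musculus in liver and testis.

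For Mrpl15, the counterpart of L15, the domesticus minus musculus difference was unequal between tissues. In testis 4 of its probe sets were higher in domesticus than in musculus. The 1434970_a_at read 2225 and 2045 in domesticus testis against 811 and 770 in musculus (1.40, SE 0.133, adjusted p 9.44e-06), with the 4 F1 of that cross between them at 1516 to 1791. The 1435232_x_at read 4668 and 4275 in domesticus against 1904 and 1725 in musculus (1.29, adjusted p 3.09e-05). The 1425189_a_at read 2940 and 3167 in domesticus against 1542 and 1270 in musculus (1.11, adjusted p 0.00045), and 1434971_x_at read 3884 and 3231 in domesticus against 2211 and 1594 in musculus (0.91, adjusted p 0.00312). The domesticus testes were the higher ones at all 4. In liver 1434970_a_at pointed the other way, at 2420 and 2623 in domesticus against 3339 and 3363 in musculus, but none of the 4 was called there. In brain only 1425189_a_at of the 4 was called lower, at 952 and 1452 in domesticus against 1900 and 1950 in musculus (-0.70, adjusted p 0.0382). That brain call ended in 10 of 19 alternative settings. In castaneus testis 1434970_a_at read 1115 and 1043 (0.43, adjusted p 0.0459), a call lost in 15 of 19 settings.

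The remaining probe set had another pattern. Mrpl15 1430798_x_at read 152 and 152 in domesticus liver and 129 and 176 in castaneus liver, against 1332 and 1174 in musculus. The differences were -2.81 (adjusted p 7.78e-05) and -2.82 (adjusted p 7.67e-05), and the F1 livers lay between at 398 to 897. In castaneus brain it read 75 and 74 against 353 and 411 in musculus (-1.96, adjusted p 0.0122). In testis it was dim in each line, at 98 and 94 in domesticus, 56 and 92 in castaneus and 79 and 79 in musculus. Mrpl15 1439988_at was also lower in castaneus liver (-1.45, adjusted p 0.0254).

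**Figure D4:**
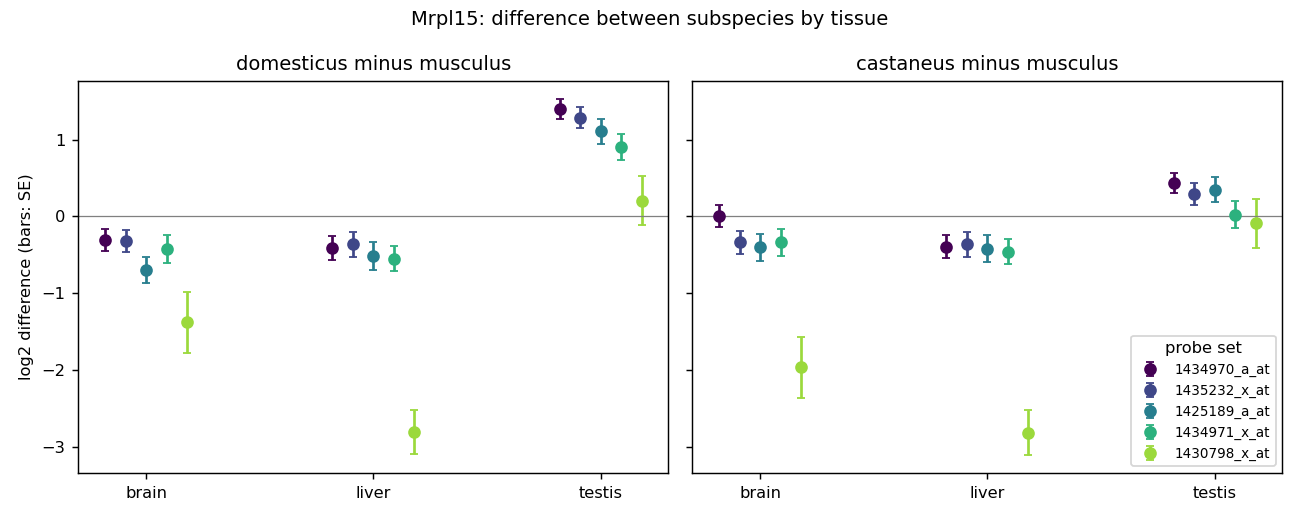
Log2 difference of domesticus (left panel) and castaneus (right panel) from musculus for 5 probe sets of Mrpl15 in brain, liver and testis, with standard errors. In domesticus, 4 probe sets lie below 0 in brain and liver and between 0.91 and 1.40 in testis, and 1430798_x_at lies at -2.81 in liver.

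The remaining large subunit calls were scattered over genes and tissues. Mrpl43, a mitochondria-specific protein, read 2475 and 2666 in castaneus testis against 871 and 819 in musculus (1.57, SE 0.196, adjusted p 0.000108). The castaneus testes were the highest and the musculus testes the lowest of all genotypes. Mrpl1 (1423351_at) read 218 and 221 in castaneus liver against 683 and 710 in musculus (-1.54, SE 0.181, adjusted p 0.000214), while the F1 of that cross lay between at 515 to 541. Mrpl48 (1428302_at) read 767 and 630 in castaneus testis against 1967 and 1515 in musculus (-1.27, adjusted p 0.000686) and was also lower in domesticus testis (-0.68). Mrpl38 (1447961_s_at), a mitochondria-specific protein, read 1489 and 1921 in domesticus liver against 767 and 845 in musculus (1.04, adjusted p 0.0165). These arrays did not overlap, nor did those of 47.6% of all probe sets. Of the other probe sets, that of Mrpl1 (1450948_a_at) was at 0.02 in castaneus liver, those of Mrpl48 at -0.35 and 0.06 in castaneus testis and -0.34 and -0.48 in domesticus testis, and those of Mrpl38 at 0.49 and -0.20 in domesticus liver, none called.

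In castaneus brain Mrpl57, Mrpl55 and Mrpl35 (1419363_a_at) fell by 1.05, 0.85 and 0.83. Mrpl35 1440989_at rose there by 0.72, at 1091 and 1189 against 730 and 636 in musculus, so the 2 probe sets of the gene were called in opposite directions. Mrpl41 rose in castaneus brain at both 1428588_a_at (0.81) and 1428589_at (0.77), each call lost in 10 or more of 19 alternative settings, and in castaneus testis (0.82, adjusted p 0.02). Mrpl11 (1437131_x_at) rose by 0.82 in castaneus brain. Mrpl35 (1419363_a_at) and Mrpl58 fell in castaneus testis by 0.93 and 0.83. In domesticus, Mrpl3 (1440636_at) fell in brain (-0.86, adjusted p 0.0192), and Mrpl48, Mrpl13 and Mrpl16 fell in testis by 0.68, 0.68 and 0.67. Uncalled probe sets of these genes were at 0.09 for Mrpl57, -0.32 for Mrpl35 and 0.09 and 0.42 for Mrpl11 in castaneus brain, 0.48 for Mrpl41, 0.14 for Mrpl35 and 0.12 for Mrpl58 in castaneus testis, -0.13 and 0.18 for Mrpl3 in domesticus brain, and -0.55 and -0.53 for Mrpl13 in domesticus testis.

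Single arrays moved several of these counts by more than 1.5-fold. For domesticus minus musculus, brain gave 3 calls without musculus replicate 2 and 4 without domesticus replicate 1. Liver gave 5 and 6 without domesticus replicates 1 and 2, and 3 and 4 without musculus replicates 1 and 2. Testis gave 12 without domesticus replicate 1. For castaneus minus musculus, brain gave 9 and 4 without castaneus replicates 1 and 2, and 3 and 4 without musculus replicates 1 and 2. Liver gave 5 without castaneus replicate 1 or musculus replicate 2, and testis gave 12 without castaneus replicate 1, castaneus replicate 2 or musculus replicate 1. In liver, quantile normalization gave 3 higher and 8 lower for castaneus, and median centring gave 4 higher and 3 lower for domesticus.

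Over the 3 tissues, 25 probe sets of 19 genes were called for domesticus minus musculus, and 5 of them in all 3 tissues with 1 sign: both Mrps9 probe sets and Mrps11 higher, Mrps14 and Mrps25 lower. Of these 5, Mrps9 1448921_a_at alone kept its calls in all 3 tissues in each of 19 alternative settings. For castaneus minus musculus 31 probe sets of 24 genes were called, and 3 of them in all 3 tissues: both Mrps9 probe sets higher and Mrpl39 lower, with their calls kept in each of those settings. The share of all probe sets called in any tissue or in all 3 was not counted, so these counts cannot be set against the whole array. Whether a parental difference itself depended on tissue was tested for 129 members. Of these, 12 were called for domesticus (against 6.46% of all probe sets) and 12 for castaneus (against 6.72%). With the animal as a block these counts were 25 and 20 (12.4% and 13.8% of all probe sets). For domesticus 7 were left without musculus replicate 1. The castaneus count was 4 without either castaneus male and 5 without either musculus male.

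The smallest p for domesticus were those of Mrpl15. Its 1434970_a_at stood at -0.30 in brain, -0.41 in liver, but 1.40 in testis (adjusted p 2.59e-08), followed by 1435232_x_at (7.43e-07), 1425189_a_at (8.26e-06), 1434971_x_at (0.000173) and 1430798_x_at (0.000702). Mrpl38 stood at -0.38 in brain, against 1.04 in liver and 0.86 in testis (0.00107). For castaneus, Mrps9 1448921_a_at was higher in every tissue with unequal size, 3.37, 2.23 and 4.12 in brain, liver and testis (0.000174). Mrpl43 differed by 0.12, 0.54 and 1.57 (0.00209), and Mrpl51 by 0.13, 0.31 and -0.63 (0.0138).

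Each F1 was set against the mean of its parents on the log2 scale. In the domesticus cross 2 members rose in brain, 0 in liver and 1 in testis (against 0.137%, 0.178% and 0.414% of all probe sets). In the castaneus cross 2 rose in brain, 0 in liver, and 19 rose and 1 fell in testis (15.0%, against 0.137%, 0.241% and 17.4% of all). In liver 5 members of the domesticus cross (3.65%, against 5.5% of all probe sets) and 9 of the castaneus cross (6.57%, against 7.81%) had an unadjusted p under 0.05. The brain calls were both Mrps9 probe sets: 1448921_a_at lay 0.89 above the log2 midparent in the domesticus cross (SE 0.109, adjusted p 0.00691) and 0.99 above it in the castaneus cross (SE 0.109, adjusted p 0.00673), and 1435843_x_at lay 0.70 and 0.75 above. Mrps9 1418034_at and 1439210_at were not called there. The 1435843_x_at call in the domesticus cross was lost in 18 of 19 alternative settings and that in the castaneus cross in 10, and leaving out any 1 array of the groups compared left 1 call in each cross. In castaneus-cross liver 1 call appeared without castaneus replicate 2 or the musculus x castaneus F1 replicate 1, and in domesticus-cross testis there were 2 without either musculus array.

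In testis Mrps9 1448921_a_at lay 1.00 above the log2 midparent in the domesticus cross (SE 0.111, adjusted p 0.00043) and 1.48 above it in the castaneus cross (SE 0.111, adjusted p 2.29e-05). The log2 midparent lies well under the linear one where the parents are this far apart. On the linear scale the F1 mean of this probe set covered 59.2%, 64.3% and 70.2% of the way from musculus to domesticus in brain, liver and testis, and 57.6%, 67.7% and 64.9% of the way from musculus to castaneus. Mrpl39 1448909_a_at, 0.51 above the log2 midparent in castaneus-cross testis (adjusted p 0.00228), covered 39.7%, 28.7% and 47.9% of the way from musculus to castaneus. All members with a parental call had F1 means between the lines, other than Mrpl58 and Mrps17 in castaneus-cross testis, which lay outside on the musculus side (-34.8% and -47.8%). Their median position was 59.2% in brain, 73.0% in liver and 54.2% in testis for the domesticus cross (7, 10 and 22 members), and 46.4%, 62.2% and 49.0% for the castaneus cross (16, 8 and 20 members).

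In castaneus-cross testis each F1 was also set against the midparent alone. The castaneus x musculus F1 alone differed from the midparent at 2 members, Mrps9 and Mrpl39, and at 0.3% of all probe sets. The musculus x castaneus F1 alone differed at 38 members (28.6%), 35 higher and 3 lower, and at 35.3% of all probe sets. Round spermatid marker sums were 80100 and 69935 in the castaneus x musculus F1 and 42860 and 41065 in the musculus x castaneus F1, against 68620 to 83024 in the other genotypes, and their part in these calls was not tested. Whether the 2 F1 differ is the reciprocal contrast given above. Other named calls of the F1 mean were Mrpl13 (1435966_x_at, 0.59, adjusted p 0.0379), Mrpl3 (1422463_a_at, 0.58, adjusted p 0.0115) and Mrps9 1435843_x_at (1.18, adjusted p 0.0288), lost in 6, 2 and 8 of 19 alternative settings. Of the other probe sets of Mrpl13, 1460354_a_at was called (0.41) and 1424204_at was not (0.07), and of those of Mrpl3, 1422464_at was called (0.52) and 1440636_at was not (0.05). Mrps9 1418034_at and 1439210_at were at 0.27 and -0.15, not called. Without the musculus x castaneus F1 replicate 2 there were 5 calls, without the castaneus x musculus F1 replicates 1 and 2 there were 10 and 12, without castaneus replicates 1 and 2 there were 9 and 8, and without musculus replicate 2 there were 7.

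Most members differed between tissues, and liver was the highest tissue for most of them. Across the 143 probe sets that passed the filter in at least 1 tissue, brain minus liver gave 22 higher and 100 lower, testis minus liver 24 higher and 101 lower, and testis minus brain 51 higher and 72 lower. These contrasts call most of the array, with 80.3%, 82.7% and 82.5% of all probe sets called, so the size of the shift says more than the count. The median member difference was -0.49 for brain minus liver against 0.07 over all probe sets, -0.55 for testis minus liver against -0.12, and -0.22 for testis minus brain against -0.23. Quantile normalization moved the median of all probe sets by -0.18 for brain minus liver and by 0.18 for testis minus brain. Liver was the highest tissue for 90 of the 143 probe sets (62.9%, against 32.7% of all), brain for 26 (18.2%, against 37.7%) and testis for 27 (18.9%, against 29.6%). Testis was the lowest tissue for 76, brain for 58 and liver for 9, which was not counted over all probe sets.

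Both subunits followed this order. For brain minus liver the median was -0.52 for large and -0.41 for small subunit symbols, and for testis minus liver -0.65 and -0.38. Proteins with and without a bacterial counterpart had brain minus liver medians of -0.53 and -0.41. By gene, 48 of 76 had every tested probe set called lower in brain than in liver, 5 had every one called higher, 3 had no call and 20 were mixed. For testis minus liver 44 were lower throughout, 8 higher, 4 without a call and 20 mixed. For testis minus brain 22 were lower throughout, 23 higher, 7 without a call and 24 mixed. Probe sets of 1 gene were called in opposite directions for 8, 10 and 13 of 39 genes with several in the 3 contrasts. These counts by gene were not made for the whole array, so they cannot be set against it.

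**Figure D5:**
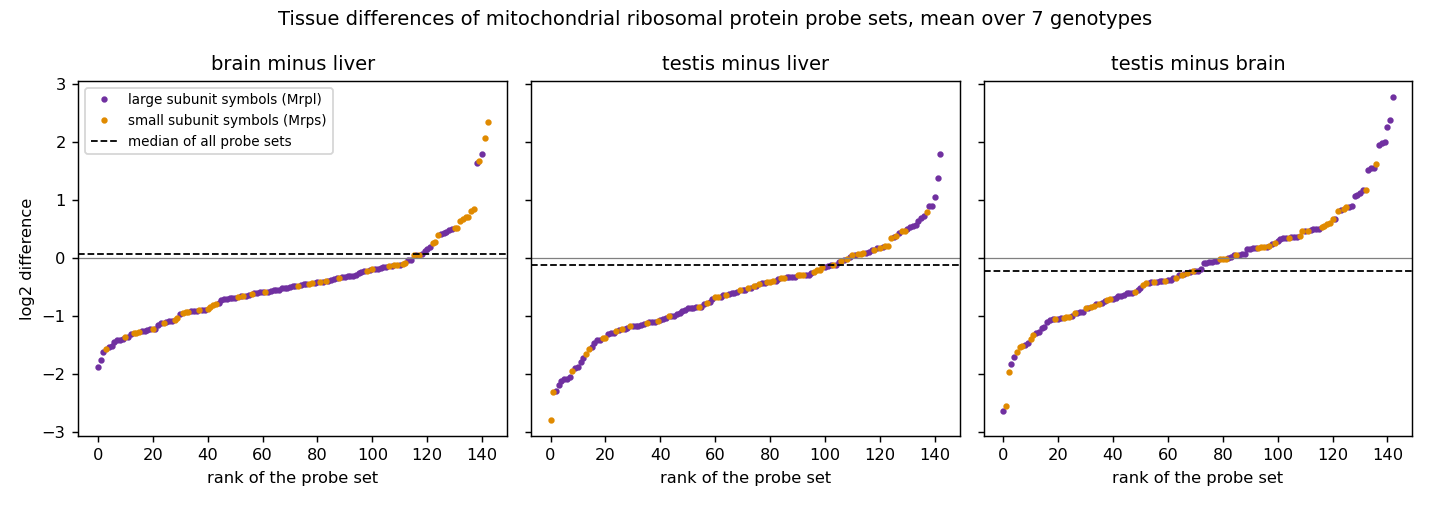
Log2 difference between tissues of each mitochondrial ribosomal protein probe set, averaged over 7 genotypes and sorted, for brain minus liver, testis minus liver and testis minus brain, coloured by subunit, with the median of all probe sets dashed. Most points of both subunits lie below 0 and below that median against liver (100 and 101 called lower of 143), and they straddle it for testis minus brain.

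Among small subunit proteins Mrps24, the counterpart of bacterial S3, had the largest deficit in testis. Its 1438563_s_at ran from 1201 to 1540 in brain (median 1377.5), from 2386 to 4373 in liver (median 3366) and from 346 to 619 in testis (median 434) over the 14 arrays of a tissue. The 3 ranges did not overlap, but the share of all probe sets without overlap between tissues was not counted. Testis minus liver was -2.79 (SE 0.0629, adjusted p 6.53e-26) and brain minus liver -1.27, and 1450865_s_at gave -2.32 for testis minus liver. Mrps18b, 1 of 3 mammalian relatives of bacterial S18, was lower in brain than in liver (-1.57), and Mrps22 was higher in testis than in liver (0.80). Mrps25 1418716_at was higher in brain, at 348 to 523 (median 438), than in liver, at 6 to 151 (median 64), and testis, at 43 to 162 (median 86), with a brain minus liver difference of 2.35. Its 1418717_at (1.68) and 1449194_at (0.68) were also higher in brain than in liver. Mrps14 1443262_at was likewise higher in brain (2.07), while its 1420489_at was lower there (-0.66) and 1420488_at differed by 0.26.

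Among large subunit proteins Mrpl27, Mrpl23 and Mrpl34 were lowest in testis. Mrpl27 (1415690_at), the counterpart of L27, ran from 2085 to 3490 in brain, 4281 to 6099 in liver and 866 to 1764 in testis (testis minus liver -2.12, and -2.29 at 1442299_at). Mrpl23, the counterpart of L23 at the tunnel exit, ran from 1629 to 2487 in brain, 2037 to 3430 in liver and 418 to 1053 in testis (testis minus liver -2.20, testis minus brain -1.84). Mrpl34 (1416349_at) had testis minus liver at -2.09, and its 1438014_at at -0.87. Testis did not overlap liver for 1415690_at, Mrpl23 or 1416349_at. These were named for large tissue differences, and the share of all probe sets without such overlap was not counted. Mrpl47 and Mrpl54 were highest in testis. Mrpl47 ran from 763 to 1372 in brain, 950 to 2166 in liver and 2905 to 7612 in testis (testis minus liver 1.80, testis minus brain 2.39). Mrpl54 ran from 657 to 1087 in brain, 947 to 1570 in liver and 2361 to 4809 in testis (1.38 and 2.01).

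Brain held the lowest level of several more. Mrpl1 1450948_a_at had a median of 202.5 in brain, 859 in liver and 1707 in testis, with brain at most 279 and the other tissues at least 667 (brain minus liver -1.88, testis minus brain 2.78). Its other probe set, 1423351_at, was lowest in testis, with medians of 383 in brain, 548 in liver and 167.5 in testis (brain minus liver -0.42, testis minus brain -1.05), so the 2 gave opposite orders of testis and brain. Mrpl12, the counterpart of the L7/L12 stalk proteins that recruit translation factors, ran from 1224 to 2214 in brain and 3833 to 6710 in liver (-1.53), with testis at 1709 to 2785. Mrpl39 1417966_at ran from 978 to 1273 in brain, 2280 to 3534 in liver and 3397 to 5514 in testis (testis minus brain 1.96, and 1.99 at 1448909_a_at). Mrpl35 split by probe set. Its 1419363_a_at had medians of 872 in brain, 3046 in liver and 4092.5 in testis (brain minus liver -1.76, testis minus brain 2.26), while 1440989_at had 678.5, 238 and 93.5 (1.64 and -2.65) and 1419362_at differed by -0.61 and -0.69. Mrpl48 1442016_at was also higher in brain than in liver (1.80), where the other probe sets of that gene gave -0.35 and -0.29. Mrpl33 1448190_at and the dim Mrpl42 1437922_at were called higher in testis than in liver (1.05 and 0.90). The other probe set of each was called lower, Mrpl33 1425843_at at -0.67 (adjusted p 3.65e-05) and Mrpl42 1418439_at at -1.53 (adjusted p 3.5e-15).

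The partners of the mitochondrial ribosome were followed through 5 lists. For brain minus liver, 1 of 15 translation factors rose and 13 fell (median -0.53), 4 of 26 assembly and rRNA modification factors rose and 16 fell (-0.40), and 2 of 20 mitochondrial aminoacyl-tRNA synthetases rose and 17 fell (-0.59). Of 19 genes of mitochondrial DNA maintenance and transcription 3 rose and 13 fell (-0.57), and of 4 ribosomal subunits named otherwise 0 rose and 3 fell (-0.62). Of all probe sets 44.1% rose and 36.2% fell in this contrast, with a median of 0.07. For testis minus liver the medians were -0.67, -0.46, -0.59, -0.95 and -0.77 in the same order, with 12, 18, 15, 14 and 3 genes lower. Of all probe sets 37.9% rose and 44.8% fell there, with a median of -0.12, also below 0. Medians of all 5 lists were therefore on the same side as that of the ribosomal proteins. Single genes departed from it: Dap3, a GTP-binding small subunit protein without an Mrps symbol, was higher in testis than in liver (1.83, adjusted p 1.34e-20), as was Dhx30, an RNA helicase of mitoribosome assembly (2.43). Tufm, the mitochondrial elongation factor Tu, was lower in testis (-1.98), and the elongation factor gene Gfm1 was lower in brain (-1.84).

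Between genotypes, in testis of the castaneus cross (castaneus-mother minus musculus-mother F1, 28.4% of all probe sets called), 1 translation factor of 15 rose and 1 fell, 3 assembly factors of 24 rose and 3 fell, 1 synthetase of 18 rose and 4 fell, 2 DNA maintenance genes of 19 rose and 1 fell, and 1 subunit of 4 named otherwise rose. Between parental lines, Mtif2, the mitochondrial initiation factor, was lower in castaneus than in musculus in brain (-0.70) and liver (-1.32) and higher in testis (0.65). Rpusd3, a mitochondrial pseudouridine synthase, was higher in domesticus brain (1.40) and liver (1.08) and lower in domesticus testis (-0.80). Mettl15, a methyltransferase of the small subunit rRNA, was higher in castaneus testis (1.75), and Gabpb1, a subunit of a transcription factor of mitochondrial genes, was lower there (-2.75).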

How the data were processed

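Brain, liver and testis of 14 males, 2 per genotype, were measured on Affymetrix mouse 430 2.0 arrays, with groups, replicate numbers and ages from the labels. Total RNA was extracted with Trizol and amplified with the Ambion MessageAmp II kit, per the labels' protocols. The deposited signals are linear intensity values, 1 for each probe set on each array, and MAS5 is the tool that the submitters' processing notes name. Its version is not given in the sources used here, nor are detection calls. The means of the arrays after trimming 2% at each end were 496.87 to 498.59, so the arrays share 1 scaling target. It fixes this mean only, and medians still differed between arrays, which quantile normalization and median centring change.

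The platform annotation gave 1 gene symbol for 34945 of 45037 probe sets, several for 932 and none for 9160. No sequence, position or chromosome was used. Signals were taken as log2(signal + 31), 31 being the 20th percentile of all values, and probe sets under the 40th percentile of a tissue were left out. The limma 3.58.1 package in R 4.3.3 fitted a mean per genotype to the 14 arrays of a tissue (lmFit, eBayes with trend), leaving 7 residual degrees of freedom. Tissue contrasts used all 42 arrays, 34583 probe sets and 21 residual degrees of freedom, and dependence on tissue was an F test over the 20178 probe sets passing in every tissue. Tests were two-sided, and adjusted p values are Benjamini-Hochberg over all probe sets tested. The scripts were tested on simulated data. The number of arrays limits the precision. The labels call the replicates biological, so p values measure the spread between 2 males of a genotype, pooled over the 7 genotypes. Tissue contrasts pooled it over the 21 groups, without the animal as a block in the main fit.

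Members and lists were chosen with earlier results of these data known. Named members were those called in a reciprocal contrast (up to 12 by size), or the 2 smallest p where fewer were called, up to 6 called parental differences per direction and tissue, up to 4 called F1 differences from the midparent, up to 6 called tissue differences per direction, members called in all 3 tissues, and up to 6 per contrast that depended on tissue. Other tested probe sets of a named gene are mostly given with the comparison that named it. A gene of another list was read at its brightest probe set in the tissue. Lists were matched by symbol: 15 of 18 translation factor symbols, 26 of 32 for assembly, 21 of 23 for synthetases, 19 of 22 for DNA maintenance and 4 of 7 for subunits named otherwise matched a probe set. The lists held older symbols as well, such as Mterfd1 beside Mterf3, and Ict1 for the member Mrpl58. An unmatched symbol is therefore not always a gene without a probe set. They were described by counts and medians only.

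Same-numbered tissues of a genotype come from 1 male by their labels, and their deviations from the group means correlated above 0.1 in 21 of 21 pairs (0.159 to 0.476). Within a tissue, same-numbered males of different genotypes did so in 32 of 63 pairs (-0.473 to 0.527), so the number does not pair them. Alternatives were an offset of 100, quantile normalization, no filter, a replicate block, each array left out, and, added after the data were seen, median centring.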

Additional observations from a re-analysis of the deposited data

Results flagged for a closer look

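These results were picked out because the difference between the same genotypes was itself unequal in brain, liver and testis by limma's F test. Benjamini-Hochberg adjustment ran over the 20178 probe sets passing the filter in every tissue, of which 129 were members. Differences are given in the order brain, liver, testis.

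For domesticus minus musculus, 4 Mrpl15 probe sets were lower or little different in brain and liver and higher in testis. These were 1434970_a_at (-0.30, -0.41 and 1.40; adjusted p 2.59e-08), 1435232_x_at (-0.32, -0.36 and 1.29; 7.43e-07), 1425189_a_at (-0.70, -0.52 and 1.11; 8.26e-06) and 1434971_x_at (-0.43, -0.55 and 0.91; 0.000173). Mrpl15 1430798_x_at had its largest difference in liver (-1.38, -2.81 and 0.21; 0.000702). Mrpl38 1447961_s_at was lower in brain and higher in liver and testis (-0.38, 1.04 and 0.86; 0.00107).

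For castaneus minus musculus, Mrps9 1448921_a_at was higher throughout and most so in testis (3.37, 2.23 and 4.12; adjusted p 0.000174). Mrpl15 1430798_x_at was lower in brain and liver and dim in testis (-1.96, -2.82 and -0.09; 0.00161), and Mrpl15 1434970_a_at differed by 0.01, -0.39 and 0.43 (0.00966). Mrpl43 was higher mainly in testis (0.12, 0.54 and 1.57; 0.00209). Mrpl38 1447961_s_at differed by -0.42, 0.82 and 0.37 (0.00907), and Mrpl51 by 0.13, 0.31 and -0.63 (0.0138).

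For castaneus-mother minus musculus-mother F1, Mrps6 1424440_at was higher in liver and lower in testis (0.15, 0.60 and -0.63; adjusted p 0.014). Mrpl35 gave opposite orders at its probe sets 1440989_at (0.61, 1.06 and -0.24; 0.0383) and 1419363_a_at (-0.43, -0.02 and 0.44; 0.0425). Mrpl1 1423351_at differed in testis alone by more than 0.1 (-0.10, 0.03 and -0.80; 0.0492). The testis values of these 4 results come from arrays between which the spermatid, Sertoli and Leydig markers also moved. The part of those cells was not tested. Each test also used the brain and liver values given above.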

How the results depend on the processing

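Counts of called members were 0 in every alternative for the domesticus-mother reciprocal contrast in each tissue and for the castaneus-mother one in brain and liver. In castaneus-cross testis the 18 reciprocal calls were 8 with quantile normalization, and over both crosses the 6 were 3. The 16 castaneus brain calls were 9 with median centring. Against the midparent, the 2 domesticus-cross brain calls were 1 with an offset of 100, quantile normalization, no filter, median centring or the domesticus-mother F1 alone, and 0 with the musculus-mother F1 alone. The 2 castaneus-cross brain calls were 1 with an offset of 100, no filter or either F1 alone. Castaneus-cross liver had 1 call with quantile normalization. The 20 castaneus-cross testis calls were 11 with quantile normalization, 10 with no filter, 8 with median centring, 2 with the castaneus-mother F1 alone and 38 with the musculus-mother F1 alone (0.3% and 35.3% of all probe sets for the F1 alone). The causes were not tested.

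With 1 array left out, the calls ranged from 3 to 18 for the castaneus-cross reciprocal contrast in testis and from 0 to 7 over both crosses. They ranged from 3 to 8, 3 to 12 and 12 to 24 for domesticus minus musculus in brain, liver and testis, and from 3 to 15, 5 to 9 and 12 to 20 for castaneus minus musculus. Against the midparent they were 1 in domesticus-cross brain and 1 to 2 in testis, and 1 to 2, 0 to 1 and 5 to 18 in castaneus-cross brain, liver and testis. Tissue dependence ranged from 0 to 5 for the castaneus-cross reciprocal contrast, 7 to 13 for domesticus and 4 to 13 for castaneus.

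With the animal as a replicate block across tissues, the members with tissue dependence were 25 for domesticus (12.4% of all probe sets called), 20 for castaneus (13.8%), 14 for the castaneus-cross (18.0%) and 1 for the domesticus-cross reciprocal contrast (1.95%). With the replicate number as a block within a tissue, the castaneus-cross testis calls were 22, and no count of calls within a tissue moved by over 1.5 times. The number does not pair males within a tissue. Of 127 named values, 78 had the same result in every alternative and 49 did not. The 78 include the reciprocal members named for a small p, which had no call to lose. Leaving out an array ended the call in 210 of 1778 trials, median centring in 23 of 91, no filter in 16 of 127 and quantile normalization in 9 of 127. The 1778 trials also count those uncalled members and arrays outside the groups compared. The 2 arrays per group and dim probe sets limit what could be called.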
